A study of Mus musculus with 8 samples.

Results

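The 10 genes described here encode inhibitory receptors of myeloid cells and the sialic acid-binding lectins (Siglecs) grouped with them, together with CD47, the ligand of one of the receptors. They were chosen by name, as *Sirpa*, *Cd47*, *Pirb*, *Lilrb4a*, *Siglec1*, *Siglece*, *Cd300a*, *Cd300lf*, *Clec12a*, and *Cd200r1*, each matched by its Ensembl identifier to 1 row of the deposited counts, so that 10 of 54146 genes were selected. The list itself was drawn up with earlier results of these data known. Bulk RNA-Seq had been done on macrophages from the epididymal white adipose tissue (eWAT) of male C57Bl6 mice. All 4 mice had eaten a high-fat diet freely for 24 weeks and had then been calorically restricted for 2 weeks, with 30% less food, so that every library comes from animals in this state. The mice of the study were young adults when the diet began, and how LDL receptor deficiency was produced in these 4 animals, if it was, is not given in the sources used here. CD45+, CD3-, B220-, Ly6G-, SiglecF-, CD11b+ cells were split by antibody staining into FCGR4+ and FCGR4- macrophages, where FCGR4 is an activating Fcγ receptor for IgG, which gave 1 library of each population per mouse. The gate holds no marker that only macrophages carry, and no lean, unrestricted, or female animals were included.

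Inhibitory receptors set a threshold for phagocytosis and cytokine release. Most of them carry tyrosine-based inhibitory motifs (ITIMs) in the cytoplasmic tail, and when an activating receptor such as an Fc receptor fires nearby, Src-family kinases phosphorylate these motifs, which then recruit the phosphatases SHP-1 (*Ptpn6*), SHP-2 (*Ptpn11*), or SHIP-1 (*Inpp5d*). Several of their ligands are marks of healthy self, such as CD47 for SIRPα, MHC class I for PIR-B, sialylated glycans for Siglecs, and CD200 for CD200R1, whereas the CD300 family binds membrane lipids, among them lipids exposed on dying cells. In several of these families an inhibitory receptor is paired with near-identical activating receptors that lack the motifs and signal through the adaptors DAP12 (*Tyrobp*) or FcRγ (*Fcer1g*).

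Those near-identical partners bear on the values of 2 members, because the authors counted a read pair that mapped to several places at each of them. Of the 50-base words in the transcripts of *Pirb*, 34.0% also occurred in another gene, and 46.7% of those of *Lilrb4a* did, although 33.7% occurred in *Gm49339*, which overlaps *Lilrb4a* in the genome. The share was 3.18% for *Cd300a*, 2.29% for *Cd300lf*, 1.33% for *Siglec1*, 1.16% for *Cd200r1*, 0.615% for *Cd47*, and 0.402% for *Clec12a*, and it was 0 for *Sirpa* and *Siglece*. The coding sequences of *Pirb* and its activating partner *Pira2* were 94.7% identical over 2039 aligned bases, with 477 bases in the longest exact run. To show what a sequencing read could and could not separate, the same 60 coding bases of exon 3 (coding bases 230 to 289) are given below for both genes, with the 2 differing bases in capitals, followed by 60 bases at the end of the coding sequence of *Pirb* (exon 15, coding bases 2464 to 2523), none of whose 50-base words occurred in another gene. All are on the minus strand of mm10, written 5′ to 3′ in the direction of transcription, at chr7:3719703-3719762 for exon 3 of *Pirb*, chr7:3844400-3844459 for *Pira2*, and chr7:3712654-3712713 for the end of *Pirb*.
Pirb, exon 3: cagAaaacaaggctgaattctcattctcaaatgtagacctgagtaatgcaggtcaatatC
Pira2, exon 3: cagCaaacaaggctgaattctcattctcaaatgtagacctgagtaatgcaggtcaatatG
Pirb, end of the coding sequence: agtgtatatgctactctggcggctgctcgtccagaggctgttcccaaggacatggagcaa

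The stretch of exon 3 encodes part of the extracellular region, where the inhibitory and the activating receptor are alike, and the last stretch belongs to the cytoplasmic tail of PIR-B, which *Pira2* lacks. Counts of *Pirb* are therefore partly counts that *Pira2* and its relatives also received. *Lilrb4a*, which encodes gp49B, has the partner *Lilr4b*, with 96.0% identity over 907 aligned coding bases. The same 60 coding bases of exon 3 (coding bases 81 to 140) show the similarity, again with the 2 differing bases in capitals, on the plus strand of mm10 at chr10:51491444-51491503 for *Lilrb4a* and chr10:51481150-51481209 for *Lilr4b*.
Lilrb4a, exon 3: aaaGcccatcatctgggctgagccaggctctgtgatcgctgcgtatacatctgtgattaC
Lilr4b, exon 3: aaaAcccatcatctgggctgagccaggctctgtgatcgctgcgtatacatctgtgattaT

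*Lilrb4a* has a further limit. Of its 5227 exon bases, 1874 (35.9%) lie on exons of overlapping genes, 1846 of them on *Gm49339*. Read pairs there that could not be given to a single gene had been left uncounted. Uncounted pairs lower its level and pairs shared with the more abundant *Lilr4b* raise it, and the net effect was not tested.

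The libraries held 35992794 to 66856746 counts in total. Levels are given as normalized CPM, the counts of a gene scaled to the TMM-adjusted total of its library, and on this scale a floor of 3 counts corresponds to 0.0440 to 0.0883. All 10 members were among the 17095 genes that reached 10 counts in 4 or more of the 8 libraries and were tested. For *Fcgr4*, the gene behind the sort, the mean level was 199.6 (SD 42.4, n = 4 mice) in the FCGR4+ and 66.1 (SD 18.3) in the FCGR4- libraries. Macrophage markers were abundant in both populations. In FCGR4+ macrophages all 9 tested mast cell and basophil markers and 7 of 9 tested neutrophil markers were lower at an adjusted P under 0.1 by edgeR. The log2 fold changes of all 9 neutrophil markers were negative. In bulk libraries, fewer cells of a type and less RNA per cell cannot be told apart.

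Whether the receptors differ between FCGR4+ and FCGR4- macrophages was asked within mice, by the quasi-likelihood test of edgeR with a mouse term. At an adjusted P value under 0.1, 0 of the 10 members passed, against 1.27% of all genes tested (0.0819% higher and 1.19% lower in FCGR4+ macrophages). At an unadjusted P value under 0.05 there were 3 members (*Siglec1*, *Clec12a*, and *Cd300lf*), a level that 9.77% of all genes reached. DESeq2 called 2 members, *Siglec1* and *Clec12a*, both higher in FCGR4+ macrophages, where it called 5.99% of all genes (1.12% higher and 4.87% lower). The newer quasi-likelihood method of edgeR called 1 member, *Siglec1*, as higher, where it called 3.68% of all genes (0.333% higher and 3.35% lower). With genes of low counts kept in the fit, edgeR called all 3, *Siglec1* and *Clec12a* as higher and *Cd300lf* as lower, beside 2.77% of all genes (0.418% higher and 2.35% lower). The log2 fold changes of the members ran from -0.70 to 0.70 with a median of 0.08, beside a median of -0.00254 over all genes tested, and 6 were positive and 4 negative. Within mice, FCGR4+ macrophages had the higher level of 3 members in 4 of 4 mice (*Cd47*, *Siglec1*, and *Clec12a*, beside 8.35% of all genes), 0 were lower in 4 of 4 mice (beside 10.4%), and the direction of the other 7 differed between mice. For no member did the 2 populations separate without overlap, which 0.883% of all genes did in the higher and 3.02% in the lower direction.

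**Figure D1:**
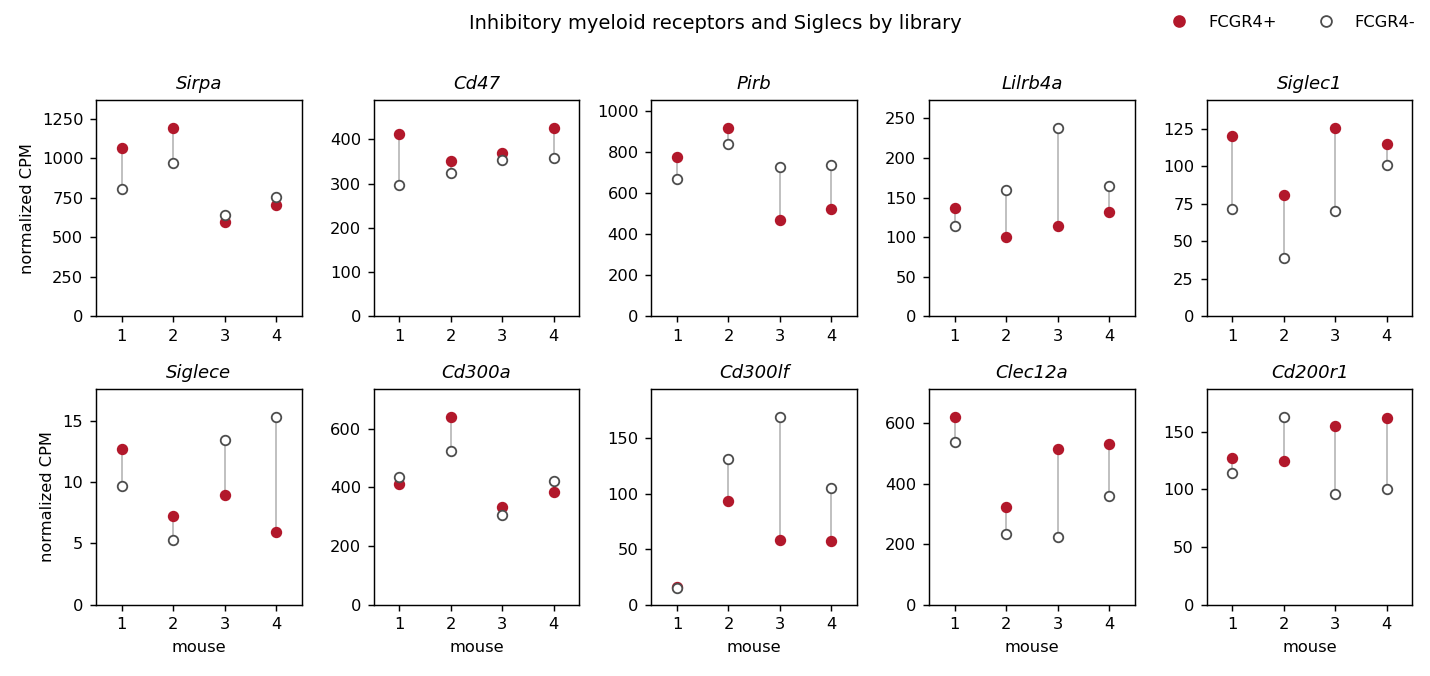
Normalized CPM (y axis, from 0, own scale per gene) of the 10 members in each mouse (x axis), with FCGR4+ libraries as filled red and FCGR4- libraries as open circles and a line joining the pair of a mouse. *Siglec1*, *Clec12a*, and *Cd47* are higher in FCGR4+ macrophages in 4 of 4 mice, and *Cd300lf* is low in both libraries of mouse 1 (16.1 and 14.7).

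SIRPα and its ligand come first. *Sirpa* (chr2:129592835-129632228, plus strand) encodes the ITIM receptor through which CD47 restrains engulfment, and its level in FCGR4+ macrophages was 1062, 1189, 594, and 702 normalized CPM in mice 1 to 4. The FCGR4- macrophages of the same mice had 804, 971, 637, and 751. Mice 1 and 2 had more *Sirpa* in FCGR4+ macrophages and mice 3 and 4 slightly less, and the populations overlapped, with a log2 fold change of 0.12 (SE 0.145, adjusted P = 0.774 by edgeR).

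*Cd47* (chr16:49800533-49915010, plus strand), made by nearly every cell as the signal that engages SIRPα, had 412, 352, 370.1, and 425 normalized CPM in the FCGR4+ libraries of mice 1 to 4. In the FCGR4- libraries it had 298, 323, 354, and 358. FCGR4+ macrophages were the higher in each mouse, by a log2 ratio between 0.06 in mouse 3 and 0.47 in mouse 1, yet the ranges overlapped. For the log2 fold change of 0.23 (SE 0.132), the adjusted P was 0.603 by edgeR. Of all members, *Cd47* also varied least between mice: its geometric mean over the pair of libraries differed 1.16-fold between the highest and lowest mouse, a spread larger than that of only 3.77% of the genes tested, whose median was 1.74-fold.

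PIR-B and gp49B are the members of the leukocyte immunoglobulin-like receptor family. *Pirb* (chr7:3711409-3720391, minus strand), the ITIM receptor for MHC class I, had 773, 915, 470.2, and 523 normalized CPM in FCGR4+ macrophages of mice 1 to 4. The FCGR4- values were 667, 837, 727, and 735. As for *Sirpa*, mice 1 and 2 had more in FCGR4+ macrophages and mice 3 and 4 had less. The FCGR4- libraries lay close together (742 ± 70.4, SD, n = 4) while the FCGR4+ libraries spread widely (670.0 ± 209.8). *Pirb* had a log2 fold change of -0.20 (SE 0.183, adjusted P = 0.721 by edgeR). When the counts of *Pirb* were summed with those of *Pira2*, *Gm15922*, *Gm14548*, *Gm15448*, and *Lilra6*, which share its sequence, the log2 fold change was -0.33 (SE 0.178, adjusted P = 0.585 by edgeR). The mean level of the sum was 1146 ± 370 normalized CPM (SD, n = 4) in FCGR4+ and 1409 ± 310 in FCGR4- macrophages. Pairs that mapped to several of these genes are counted more than once in it, so it overstates the level of the family.

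The level of *Lilrb4a* (chr10:51490956-51496611, plus strand), an ITIM receptor of macrophages and mast cells, was 136, 101, 114, and 132 normalized CPM in the 4 FCGR4+ libraries in the order of the mice. The FCGR4- libraries had 114, 159, 238, and 165. Mouse 1 was slightly higher in FCGR4+ macrophages and the other 3 mice were lower, most of all mouse 3, with a log2 fold change of -0.44 (SE 0.219, adjusted P = 0.558 by edgeR). Adding the counts of the overlapping *Gm49339* gave -0.44 (SE 0.216, adjusted P = 0.554 by edgeR), which does not bring back pairs left uncounted. Mast cell and basophil markers were lower in FCGR4+ macrophages for 9 of 9 tested, with a summed level of 6.85 to 24.6 normalized CPM there. In FCGR4- macrophages the sum was 2107, 1157, 199.6, and 461 normalized CPM in mice 1 to 4. The log2 ratios of *Lilrb4a* in these mice were 0.26, -0.66, -1.06, and -0.32. The part of these markers in the fold change of *Lilrb4a* was not tested.

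The Siglecs of the list differ in kind. *Siglec1* (chr2:131069220-131086765, minus strand) encodes sialoadhesin (CD169), a long adhesion receptor of resident macrophages that has no ITIM of its own, and its level was 120.2, 80.8, 125, and 115 normalized CPM in FCGR4+ macrophages of mice 1 to 4. FCGR4- macrophages had 71.8, 39.0, 70.2, and 101. Each mouse had more in FCGR4+ macrophages, though by only 0.18 on the log2 scale in mouse 4 against 1.05 in mouse 2, and the FCGR4+ library of mouse 2 lay below the FCGR4- library of mouse 4. The log2 fold change, the highest of the members, was 0.70 (SE 0.171, adjusted P = 0.183 by edgeR). In 3 of 13 alternatives it passed, at 0.00635 with DESeq2, 0.0840 with the newer method of edgeR, and 0.0127 with genes of low counts kept, and the highest adjusted P of the 13 was 0.783. The summed level of 12 macrophage markers was also higher in FCGR4+ macrophages in 4 of 4 mice, at 30052 to 54222 normalized CPM against 22563 to 47518. Of their log2 fold changes 10 of 12 were positive, with a median of 0.56. Most of the sum was *Lyz2*, at 16762 to 39810 against 14387 to 38655 normalized CPM, with a log2 fold change of 0.13. By edgeR, *Aif1* passed higher (0.98, adjusted P = 0.0631) and *Cd163* passed lower (-0.96, adjusted P = 0.0602). The part of these markers in the values of *Siglec1* was not tested.

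*Siglece* (chr7:43651070-43660161, minus strand), an ITIM Siglec of neutrophils, monocytes, and macrophages, was the least abundant member. Its values were 12.7, 7.26, 8.91, and 5.89 normalized CPM in the FCGR4+ and 9.63, 5.30, 13.4, and 15.3 in the FCGR4- libraries. Once more mice 1 and 2 were higher and mice 3 and 4 lower in FCGR4+ macrophages. A log2 fold change of -0.28 (SE 0.334, adjusted P = 0.780 by edgeR) resulted, and without mouse 4 it was 0.086. Neutrophil markers were lower in FCGR4+ macrophages in 4 of 4 mice as a sum (127 to 568 against 406 to 2560 normalized CPM), although the sort excluded Ly6G+ cells, and their part in the values of *Siglece* was not tested.

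The CD300 receptors bind phospholipids and sphingolipids of cell membranes. *Cd300a* (chr11:114890041-114904654, plus strand) had 413, 640.3, 332, and 384 normalized CPM in FCGR4+ and 437, 525, 306, and 423 in FCGR4- macrophages of mice 1 to 4. Mouse 2 was highest and mouse 3 lowest in both populations, and the pairs differed little. Its log2 fold change was the closest to 0 among the members, at 0.05 (SE 0.134, adjusted P = 0.917 by edgeR), and it turned negative when library size alone was used for scaling (-0.043).

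*Cd300lf* (chr11:115116214-115133992, minus strand), which also carries ITIMs, had 16.1, 93.1, 58.2, and 57.6 normalized CPM in FCGR4+ macrophages of mice 1 to 4. In FCGR4- macrophages it had 14.7, 131, 169, and 105. Mice 2 to 4 had less in FCGR4+ macrophages, and mouse 1 had little in either population. With a log2 fold change of -0.70 (SE 0.261, unadjusted P = 0.0313, adjusted P = 0.447 by edgeR), it was the lowest of the members. Among 13 alternatives it passed in 1, at 0.0543 with genes of low counts kept, and the highest adjusted P of the 13 was 0.998. The difference between mice was larger than that between populations: the geometric mean over a mouse's pair of libraries was 15.4 normalized CPM in mouse 1 and 110.6, 99.3, and 77.8 in mice 2 to 4, a 7.18-fold range that was wider than that of 94.2% of the genes tested. The 8 classical monocyte markers were lowest in mouse 1 too, with a sum of 1116 normalized CPM in FCGR4+ and 928 in FCGR4- macrophages against 2291 to 6189 in the other 6 libraries, and their part in the level of *Cd300lf* was not tested.

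Of the 2 remaining receptors, *Clec12a* (chr6:129342691-129365303, plus strand) encodes an ITIM-bearing C-type lectin that senses uric acid crystals released by dead cells. Its FCGR4+ libraries had 621, 323, 515, and 529.5 normalized CPM and its FCGR4- libraries 539, 233, 225, and 358 in mice 1 to 4. FCGR4+ macrophages were higher in each mouse, from a log2 ratio of 0.21 in mouse 1 to 1.20 in mouse 3, and the ranges overlapped because the FCGR4- library of mouse 1 lay above the FCGR4+ library of mouse 2. Its log2 fold change was 0.61 (SE 0.182, unadjusted P = 0.0121, adjusted P = 0.303 by edgeR). Alternatives that called it were DESeq2, at 0.0408, and the fit with genes of low counts kept, at 0.0437, and over 13 alternatives the adjusted P rose to 0.919. As for *Siglec1*, the macrophage marker sum, mostly *Lyz2*, was higher in FCGR4+ macrophages in the same 4 mice, and its part in the values of *Clec12a* was not tested.

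*Cd200r1* (chr16:44765736-44794978, plus strand) encodes the receptor for CD200, which inhibits through DOK adaptors rather than an ITIM. It had 127, 125, 155, and 162 normalized CPM in FCGR4+ and 114, 163, 96.3, and 100.4 in FCGR4- macrophages of mice 1 to 4. Mouse 2, whose FCGR4- library was the highest of all 8, was the one mouse with less in FCGR4+ macrophages. It had a log2 fold change of 0.29 (SE 0.207, adjusted P = 0.655 by edgeR), and between mice its level differed 1.18-fold, nearly as little as that of *Cd47*.

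**Figure D2:**
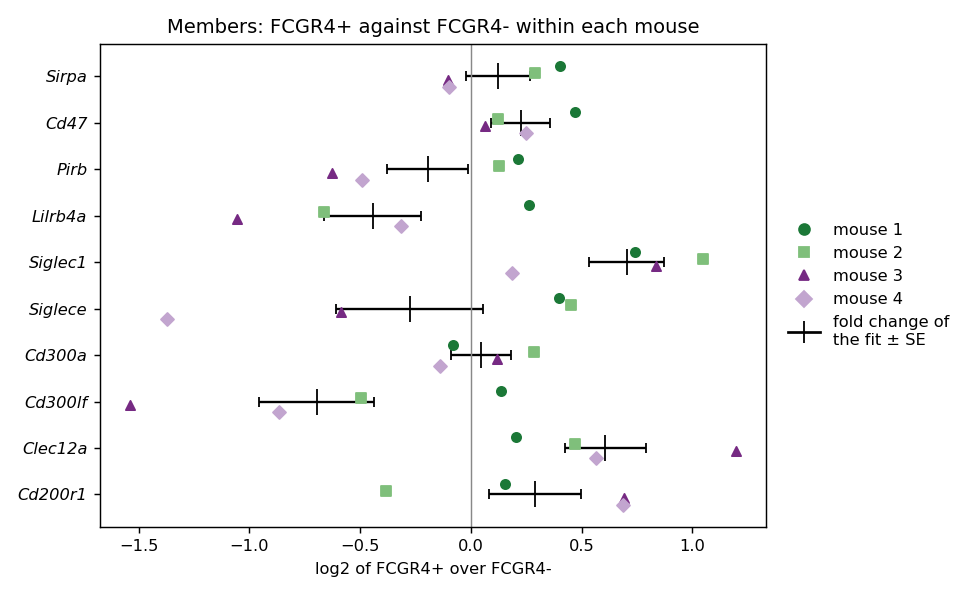
Log2 ratio of FCGR4+ over FCGR4- macrophages for each member (rows) within each mouse (colored symbols), with the log2 fold change of the paired edgeR fit ± its standard error (black). *Siglec1*, *Clec12a*, and *Cd47* lie to the right of 0 in 4 of 4 mice, and *Sirpa*, *Pirb*, and *Siglece* lie to the right in mice 1 and 2 and to the left in mice 3 and 4.

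Single mice moved several of these fold changes by more than 1.5 times. Without mouse 3 the log2 fold change of *Cd300lf* was -0.43, that of *Lilrb4a* -0.25, that of *Pirb* -0.063, that of *Clec12a* 0.40, and that of *Siglece* -0.18. Without mouse 1 *Lilrb4a* was at -0.68, *Pirb* at -0.33, *Siglece* at -0.52, *Cd47* at 0.14, and *Sirpa* at 0.031. Over the 4 left-out fits *Sirpa* ranged from 0.031 to 0.20, *Pirb* from -0.33 to -0.063, *Cd300lf* from -0.97 to -0.43, and *Cd200r1* from 0.14 (without mouse 3) to 0.50 (without mouse 2), while *Siglec1* stayed between 0.58 and 0.88.

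To compare abundance between genes, levels were divided by exon length. In the mean over 8 libraries *Sirpa* was highest, above 97.5% of the genes tested. Its level was 181 ± 57.8 normalized CPM per kilobase (SD, n = 4) in FCGR4+ and 161 ± 28.3 in FCGR4- macrophages. *Pirb* followed with 149.9 ± 46.9 and 166 ± 15.7 per kilobase. In FCGR4- macrophages *Pirb* was thus above *Sirpa*, and the ranges of the 2 genes overlapped in both populations. Next in the order of the mean over 8 libraries stood *Cd300a* (91.3), *Clec12a* (75.6), *Cd47* (57.6), *Cd200r1* (38.9), *Lilrb4a* (27.7, with the limits described), *Cd300lf* (15.7), *Siglec1* (12.7), and *Siglece* (5.30). The highest and lowest members were 32.2-fold apart, and even *Siglece* exceeded 64.3% of the genes tested. In all 9 pairs of neighbors in this order the ranges over the 8 libraries pooled overlapped. Within the 4 FCGR4+ libraries 4 of the 9 pairs were separate, *Cd47* (56.1 to 67.7) from *Cd200r1* (37.3 to 48.3), *Cd200r1* from *Lilrb4a* (19.3 to 26.1), *Lilrb4a* from *Cd300lf* (3.13 to 18.1), and *Siglec1* (11.3 to 17.6) from *Siglece* (3.19 to 6.87). Within the 4 FCGR4- libraries 1 pair was separate, *Pirb* (149 to 187) from *Cd300a* (64.6 to 111). The level of *Siglec1* per kilobase was above that of *Cd300lf* in FCGR4+ macrophages (15.4 ± 2.81 against 10.9 ± 6.12) and below it in FCGR4- macrophages (9.87 ± 3.53 against 20.4 ± 12.8), with overlapping ranges in both. The sum of the 10 members was 3324 ± 519 normalized CPM (SD, n = 4) in FCGR4+ and 3101 ± 227 in FCGR4- macrophages, and it was higher in FCGR4+ macrophages in 2 of 4 mice.

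**Figure D3:**
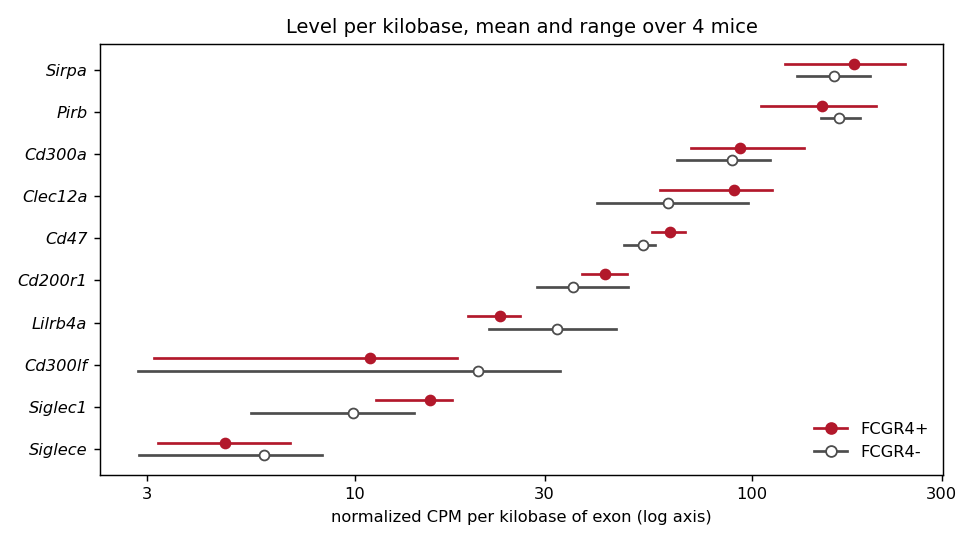
Normalized CPM per kilobase of exon (x axis, log scale) of each member, with circles for the mean and lines from the lowest to the highest of 4 mice, in FCGR4+ (red, filled) and FCGR4- (gray, open) macrophages. The order, by the mean over 8 libraries, runs from *Sirpa* to *Siglece*. The ranges of neighbors are separate in 4 of 9 pairs in FCGR4+ and in 1 of 9 in FCGR4- macrophages, and the longest ranges are those of *Cd300lf*.

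The animals fall into 2 sets by their ID prefix, mice 1 and 2 in one and mice 3 and 4 in the other, and the labels do not say what the prefix stands for. After the values had been seen, the direction of the members was examined within these sets. *Sirpa*, *Pirb*, and *Siglece* were higher in FCGR4+ macrophages in mice 1 and 2 and lower in mice 3 and 4, which is 3 of 10 members where 9.92% of all genes had this pattern. A fit with an interaction of population and prefix in edgeR was run afterwards, and there the interaction of *Pirb* was -0.73 on the log2 scale (SE 0.183, unadjusted P = 0.00800, adjusted P = 0.304). The interaction was -1.41 for *Siglece* (SE 0.377, unadjusted P = 0.0107) and -0.45 for *Sirpa* (SE 0.178, unadjusted P = 0.0489). *Cd300lf* at -1.02 (unadjusted P = 0.0238) and *Cd200r1* at 0.80 (unadjusted P = 0.0172) also had an unadjusted P under 0.05, so that 5 of 10 members reached this level, as did 13.8% of all genes. No member passed after adjustment, with a lowest adjusted P of 0.304, and none of the 17095 genes did (0.00%).

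The same 2-set pattern was present among the signaling partners, a list of 21 kinases, phosphatases, and adaptors around these receptors, all of which were tested. It was seen in 6 of 21 (*Ptpn6*, *Inpp5d*, *Csk*, *Pag1*, *Lyn*, and *Syk*), named after their values were seen, beside the 9.92% of all genes. Of the 21, 8 had an unadjusted interaction P under 0.05 in edgeR beside 13.8% of all genes, with 0.304 as the lowest adjusted value. In the lists described below, the pattern was seen in 1 of 24 relatives of the members and 0 of 7 other Siglecs. It was seen in 2 of 19 other inhibitory receptors and 2 of 23 ligands and ligand makers. *Ptpn6*, which encodes the phosphatase SHP-1, had 424, 434, 282, and 307 normalized CPM in FCGR4+ and 358, 378, 415, and 368 in FCGR4- macrophages of mice 1 to 4. *Inpp5d*, which encodes the lipid phosphatase SHIP-1, had 169, 177, 88.3, and 103 against 146, 150.3, 131, and 148. For both genes the FCGR4- libraries were alike in the 4 mice, and the FCGR4+ libraries were high in mice 1 and 2 and low in mice 3 and 4. Over the 4 mice together, 0 of 21 partners passed in edgeR and 0 in DESeq2, 1 had an unadjusted P under 0.05 (*Rasa1*, named after its value was seen), and the log2 fold changes ran from -0.40 to 0.44. The adaptors at the highest level in the list were *Tyrobp* (log2 fold change 0.14, SE 0.142) and *Fcer1g* (0.26, SE 0.122), and *Ptpn6* had -0.09 (SE 0.173).

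**Figure D4:**
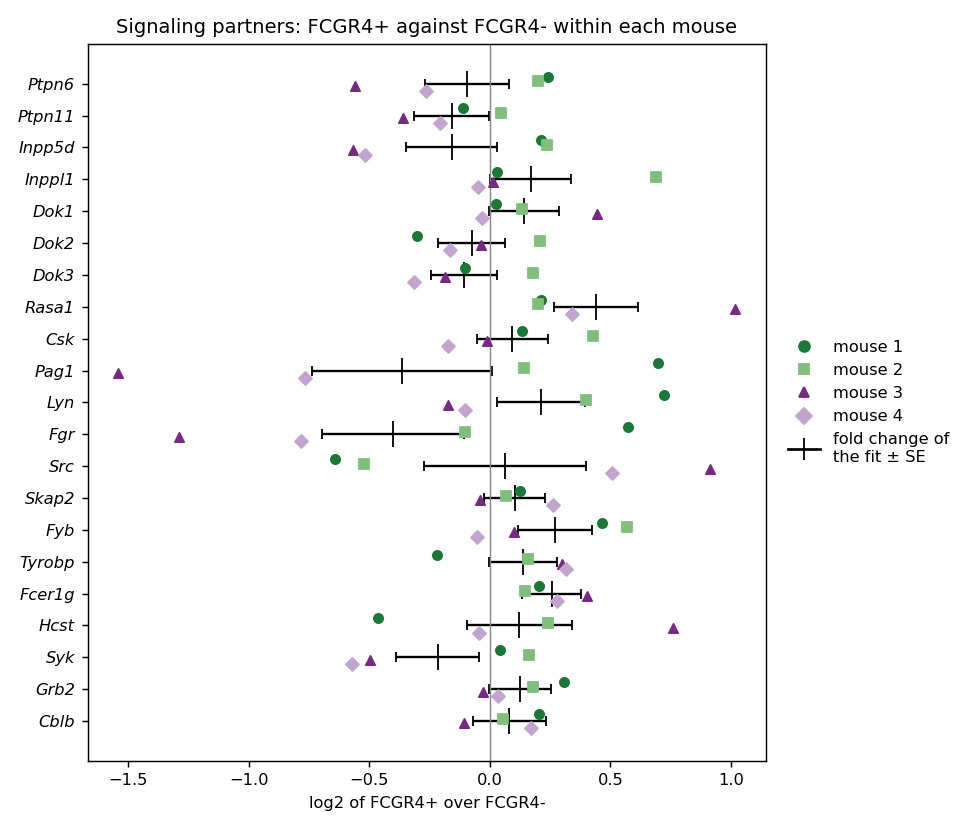
Log2 ratio of FCGR4+ over FCGR4- macrophages for the 21 signaling partners (rows) within each mouse (colored symbols), with the log2 fold change of the paired edgeR fit ± its standard error (black). In 6 rows, including *Ptpn6*, *Inpp5d*, *Lyn*, and *Syk*, both green symbols (mice 1 and 2) lie to the right of 0 and both purple symbols (mice 3 and 4) to the left.

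Activating partners and other relatives of the members were tested as a list of 24 genes, of which 1 passed higher and 0 lower, with a median log2 fold change of -0.00823. The gene that passed was *Cd300e*, which encodes an activating CD300 receptor of monocytes that signals through DAP12. FCGR4+ macrophages had 16.9, 4.62, 2.62, and 7.89 normalized CPM and FCGR4- macrophages 1.39, 1.38, 0.469, and 2.52 in mice 1 to 4. The populations did not overlap, and the FCGR4+ library of mouse 1 was the highest of the 8. Its log2 fold change of 2.36 (SE 0.386, adjusted P = 0.0631 by edgeR) remained past the threshold in 1 of the 4 fits that left out a mouse, with adjusted P values up to 0.151. Over these fits the log2 fold change was 1.94 to 2.62. The other nonclassical monocyte markers did not pass, and the sum of all 10, *Cd300e* included, was higher in FCGR4+ macrophages in 1 of 4 mice.

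DESeq2 called 2 of the 24 higher, *Cd300e* and *Lilra5* (adjusted P = 0.0432), and 2 lower, *Cd200r3* (adjusted P = 0.0343) and *Lilra6* (adjusted P = 0.0860), of which the last 3 were named after their values were seen. The 3 relatives at the highest level did not pass in edgeR. *Lilr4b*, which encodes gp49A, the relative of gp49B without ITIMs, had a log2 fold change of -0.23 (SE 0.173, adjusted P = 0.670 by edgeR), *Cd300ld* of 0.16 (SE 0.140, adjusted P = 0.707), and *Cd300c2* of 0.40 (SE 0.144, adjusted P = 0.417). *Pira2*, which shares reads with *Pirb* and is named for that, was lower in FCGR4+ macrophages in 3 of 4 mice, with a log2 fold change of -0.49 (SE 0.180, adjusted P = 0.436 by edgeR). It was highest in mouse 2 in both populations, at 252 and 355 normalized CPM.

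Among 7 other Siglecs, 1 passed lower and 0 higher. *Siglecg*, an inhibitory Siglec of B cells and some dendritic cells, had 0.169, 0.270, 0.271, and 0.208 normalized CPM in FCGR4+ and 4.37, 3.12, 1.52, and 1.96 in FCGR4- macrophages of mice 1 to 4. The populations did not overlap, and the FCGR4+ libraries were only a few times above the floor of 3 counts. The log2 fold change was -3.46 (SE 0.504, adjusted P = 0.0487 by edgeR), past the threshold in 1 of 4 fits with a mouse left out. Over these fits it was -3.82 to -3.07. Of 5 tested B cell markers, 1 passed lower (*Ighm*), 2 more had negative and 2 positive log2 fold changes (*Cd79b* at 0.41 and *Cd22* at 0.25), and their sum, 241 to 354 against 468 to 2339.9 normalized CPM, was mostly *Ighm* (167 to 319 against 400.2 to 2307). Of 10 dendritic cell markers, 5 passed lower and all 10 log2 fold changes were negative, with sums of 13.9 to 25.4 against 66.6 to 144. The sort excluded B220+ cells, and the part of either list in the fall of *Siglecg* was not tested. The Siglecs at the highest level were *Cd22*, with a log2 fold change of 0.25 (SE 0.133), *Cd33*, with -0.64 (SE 0.259), and *Mag*, with 0.54 (SE 0.243), and their adjusted P values were 0.569, 0.488, and 0.527 by edgeR.

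Other inhibitory receptors numbered 20, of which 19 were tested. There were 2 that passed higher and 0 lower, and the median log2 fold change was 0.03. DESeq2 called 3 higher, the same 2 and *Milr1* (adjusted P = 0.0119), which had a log2 fold change of 0.56 (SE 0.134, adjusted P = 0.179 by edgeR). DESeq2 and the newer quasi-likelihood method each called 2 lower, *Btla* and *Pdcd1*, inhibitory receptors of lymphocytes, and these 3 genes were named after their values were seen. *Btla* had 0, 0.749, 2.65, and 0 normalized CPM in FCGR4+ and 4.96, 7.89, 10.4, and 3.65 in FCGR4- macrophages of mice 1 to 4 (adjusted P = 0.201 by edgeR, 0.0253 by DESeq2). *Pdcd1* had 0.590, 0.187, 0, and 0.0623 against 2.20, 2.35, 0.813, and 1.16 (adjusted P = 0.167 by edgeR, 0.000191 by DESeq2). Neither gene overlapped between the populations, and 10 markers of T and NK cells together were also lower in FCGR4+ macrophages in 4 of 4 mice (3.82 to 10.9 against 17.4 to 58.8 normalized CPM), after a sort that excluded CD3+ cells. Their part in these values was not tested. *Lair1*, an ITIM receptor for collagen, had 408, 269, 294, and 294 normalized CPM in FCGR4+ and 254, 154, 196, and 199.95 in FCGR4- macrophages of mice 1 to 4. Every FCGR4+ library lay above every FCGR4- library, and the ratios of the 4 mice were alike, between 0.56 and 0.80 on the log2 scale. Its log2 fold change of 0.66 (SE 0.125, adjusted P = 0.0949 by edgeR) was no larger than that of *Siglec1*, with a smaller standard error. With 1 mouse left out, it passed in 0 of 4 fits (adjusted P values from 0.207 to 0.299 by edgeR), while its log2 fold change stayed between 0.60 and 0.69.

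*Cd72*, an ITIM receptor of B cells and myeloid cells, had 178, 82.9, 104, and 156 normalized CPM in FCGR4+ against 130.1, 36.5, 39.6, and 82.7 in FCGR4- macrophages. It was higher in 4 of 4 mice, with overlap between the populations because mouse 1 was high in both. Of its exon bases, 41.6% are shared with *Tesk1*, where pairs that could not be given to a single gene went uncounted. The log2 fold change was 0.99 (SE 0.181, adjusted P = 0.0828 by edgeR), and it passed in 1 of 4 fits with a mouse left out. Over these fits it was 0.84 to 1.17. The receptors at the highest level, *Fcgr2b* (the inhibitory Fcγ receptor), *Vsir*, and *Clec4a2*, had log2 fold changes of 0.11, 0.03, and 0.44, with standard errors of 0.132, 0.159, and 0.196, and did not pass.

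The ligands of these receptors and the enzymes that make sialylated ligands formed a list of 23 tested genes, of which 1 passed lower and 0 higher, with a median log2 fold change of 0.00154. *Cd24a*, which encodes a small sialylated glycoprotein bound by Siglec-G, had 4.94, 23.2, 51.2, and 25.8 normalized CPM in FCGR4+ and 45.2, 97.7, 193, and 80.8 in FCGR4- macrophages of mice 1 to 4. It was lower in FCGR4+ macrophages in 4 of 4 mice, with a log2 fold change of -2.19 (SE 0.262, adjusted P = 0.0232 by edgeR), and was the one gene of these lists that passed in 4 of 4 fits with a mouse left out. Without the mouse term its log2 fold change was -1.98, with an adjusted P of 0.492 by edgeR. In the same comparison 7 of 9 neutrophil markers and 7 of 10 fibroblast markers passed lower, the latter with sums of 149 to 287 against 359 to 1511 normalized CPM, and of the B cell markers 1 of 5 did. Their part in the fall of *Cd24a* was not tested. The MHC class I ligands of PIR-B were the most abundant genes of the list. *B2m* had 2210.1 ± 403 normalized CPM (SD, n = 4) in FCGR4+ and 1655 ± 339.9 in FCGR4- macrophages and was higher in 4 of 4 mice, with a log2 fold change of 0.42 (SE 0.132, adjusted P = 0.322 by edgeR), and DESeq2 called it (adjusted P = 0.0523). *H2-K1* and *H2-D1*, whose sequences resemble other class I genes, had log2 fold changes of 0.27 (SE 0.138) and 0.06 (SE 0.133).

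**Figure D5:**
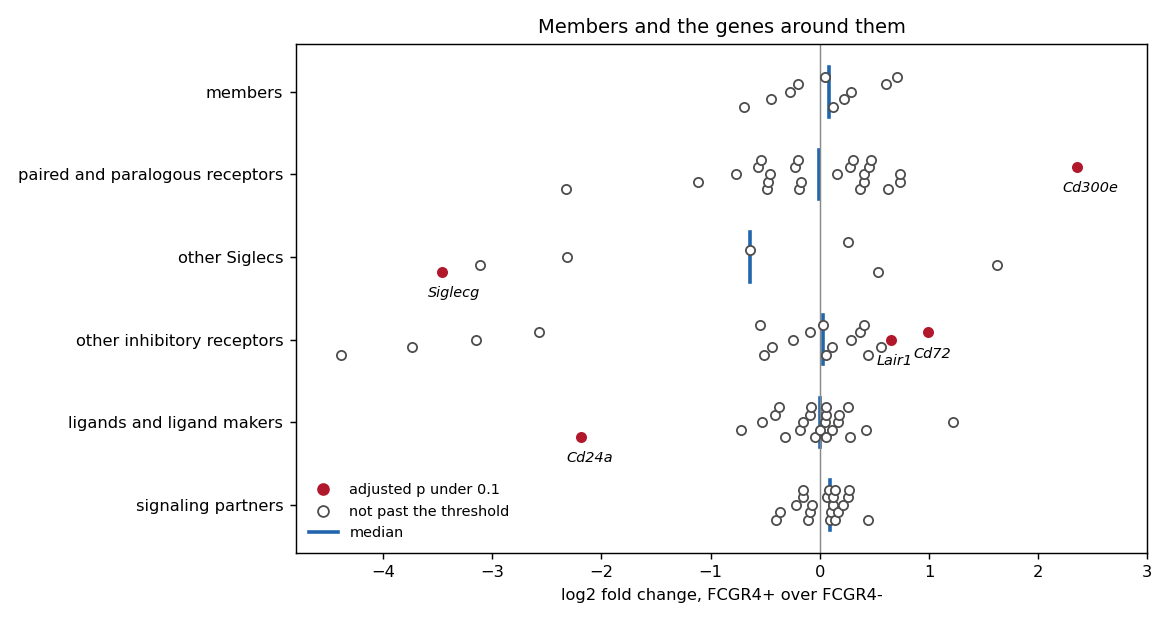
Log2 fold change of FCGR4+ over FCGR4- macrophages (x axis) of every tested gene of the members and of the 5 lists around them (rows; vertical position within a row only separates points), with the median of each list in blue and genes past an adjusted P of 0.1 in red. The red points are *Cd300e*, *Siglecg*, *Lair1*, *Cd72*, and *Cd24a*, and none is a member. The signaling partners have the narrowest range, from -0.40 to 0.44, though not the median closest to 0.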

How the data were processed

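Alignment to mm10 (STAR) and counting (featureCounts 1.6.3, GENCODE vM18) were done by the authors, who used DESeq2 with mouse and population as terms. The deposited counts are not normalized. Per the file headers, pairs were counted, multi-mapping pairs were counted at each place, pairs on several genes were dropped, and strand was not used. All per-sample columns were used (0 left out). The 17095 genes reaching 10 counts in 4 or more of the 8 libraries were normalized by TMM and tested with edgeR 4.0.16 (R 4.3.3) quasi-likelihood, with mouse as a block and a Benjamini-Hochberg threshold of 0.1. Same-numbered libraries come from 1 mouse, and their deviations from the population means correlated (0.291 to 0.428, against at most 0.0116 for different mice). Standard errors follow from the log2 fold change and F. Per-mouse ratios use a prior count of 2. Alternatives were DESeq2 1.42.0, edgeR's newer method, other scalings and filters, a threshold of 0.05, no block, and mice left out. Fits were tested on simulated data. Shared sequence was computed on GENCODE M21, same build. The genes named are the members, list genes past the threshold, and the 3 of highest mean level per list; others were named after their values were seen, or for sequence shared with a member. The lists, like the members, were chosen with earlier results known, and list names were matched to the annotation afterwards. Some listed genes are not reported here. Whether the 4 mice were raised together is not given, and depth limits only values near 3 counts.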

Additional observations from a re-analysis of the deposited data

How the results depend on the processing

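Without the replicate block, 48 genes passed (1 higher, 47 lower) in place of 217 (14 and 203), 0 members as in the paired fit, and 1 gene of the 5 lists (0 higher, 1 lower, *Siglecg*) in place of 5 (3 and 2). DESeq2 called 1024 (192 higher, 832 lower), 2 members (2 higher), and 12 list genes (6 and 6). The newer quasi-likelihood method called 629 (57 and 572), 1 member (higher), and 7 list genes, 4 of them lower. With no filter on low counts 1054 passed (159 and 895), 3 members (2 higher, 1 lower), and 11 list genes, 7 of them lower. A threshold of 0.05 left 76 genes (2 and 74) and 2 list genes (0 higher). Library size alone left 8 genes higher and 3 list genes (1 higher). Leaving out 1 mouse gave 84 to 163 genes, 2 to 9 of them higher and 82 to 154 lower, 0 members, and 1 to 3 list genes (0 to 1 higher, 1 to 2 lower). Mice 1 and 2 alone gave 113 genes (7 higher, 106 lower) and 3 list genes (0 higher), and mice 3 and 4 alone 113 (29 and 84) and 1 (0 higher, 1 lower). The causes were not tested.

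Directions reversed for *Sirpa* in mice 3 and 4 alone (-0.12), *Pirb* in mice 1 and 2 alone (0.17), *Siglece* in mice 1 and 2 alone (0.43) and without mouse 4 (0.086; -0.53 to 0.086 over the 4 mice left out), *Cd200r1* in mice 1 and 2 alone (-0.12), and *Cd300a* with library size alone (-0.043), without mouse 2 (-0.041; -0.041 to 0.11 over the 4), and in mice 3 and 4 alone (-0.033). *Cd47*, *Lilrb4a*, *Siglec1*, *Cd300lf*, and *Clec12a* kept their direction in every alternative run. Scaling by library size alone moved the median log2 fold change of all genes to -0.09, and keeping all 38021 genes with counts moved it to -0.16. In none of 30 groups of 4 values (10 members, 2 populations and the ratio) did 1 mouse stand apart by Dixon's criterion, where chance gives 1.5. With 4 values this criterion flags only extreme gaps and cannot show that the mice are alike. The low *Cd300lf* of mouse 1 (16.1 in FCGR4+ and 14.7 in FCGR4- macrophages) was not flagged.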
